A study of Mus musculus with 6 samples.

Results

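Oxidative phosphorylation is carried out by 5 protein complexes of the inner mitochondrial membrane, and most of their subunits are encoded by nuclear genes. Complexes I and II pass electrons from NADH and succinate to ubiquinone, complex III passes them on to cytochrome c, complex IV (cytochrome c oxidase) reduces oxygen, and complex V (ATP synthase) uses the resulting proton gradient to make ATP. The remaining subunits are made inside the organelle from mitochondrial DNA, so that assembly of complexes I, III, IV and V draws on both genomes, while complex II is built from nuclear genes only. Monocytes of the marrow and microglia are both mononuclear phagocytes and can use glycolysis as well as respiration.

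The genes described here are those whose symbols in the Cufflinks table begin with Nduf followed by a, b, c, s or v, are Sdha to Sdhd, or begin with Uqcr, with Cox4 to Cox8 or with Atp5. There were 88 such genes among 35237 entries. By their known roles, 81 encode a subunit and 7 do not, the latter being the complex I assembly factors Ndufaf1 to Ndufaf4, the supercomplex factor Cox7a2l, and Atp5s and Atp5sl. The same symbols were looked up in the ALEXA-Seq matrix, which holds all 88 and another 4 that match the pattern (Cox4i1, Cox4nb, Atp5l-ps1 and Atp5l2), 92 of 36536 entries.

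RNA-Seq was performed on 3 sets of bone marrow monocytes (BMDM, sorted as CD11b+ CD45high CD115+ Ly6G- cells) and on 3 sets of brainstem microglia (BSM, sorted as CD11b+ CD45low CD115low Ly6G- cells). All sets came from untreated C57BL/6 mice at 6 weeks of age, with the cells of 10 mice pooled in each set; replicate 1 of either cell type was labelled male and replicates 2 and 3 female, whereas the study's text speaks of male mice. The comparison asks which transcripts separate the monocytes of the marrow from the microglia resident in the brain. In these bulk samples a lower transcript level in every cell and a smaller number of expressing cells cannot be told apart.

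The sorted identities were checked first. All 5 listed marrow monocyte markers were higher in BMDM (summed FPKM 433 to 472 against 1.05 to 1.55) and all 5 microglia markers were higher in BSM (592 to 663 against 17.3 to 18.7). Proliferation genes summed to 256 to 329 FPKM in BMDM and to 0.00401 to 1.95 in BSM, and their part in the results was not tested. BMDM replicate 2 carried more granulocyte and erythroid transcripts than the other BMDM sets, 328 FPKM over 6 granulocyte genes against 46.0 and 83.2, and 129 FPKM over 7 erythroid genes against 19.6 and 29.6. Neither list exceeded 0.335 FPKM in any BSM set, neuronal markers stayed at or below 0.328 FPKM in all 6 libraries, and the summed astrocyte markers reached 5.31 to 9.53 FPKM in BSM. Oligodendrocyte, endothelial and lymphocyte lists stayed at or below 12.8, 3.81 and 3.37 FPKM in every library. The files used hold no read counts per gene, so the number of reads behind each value is unknown.

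**Figure D1:**
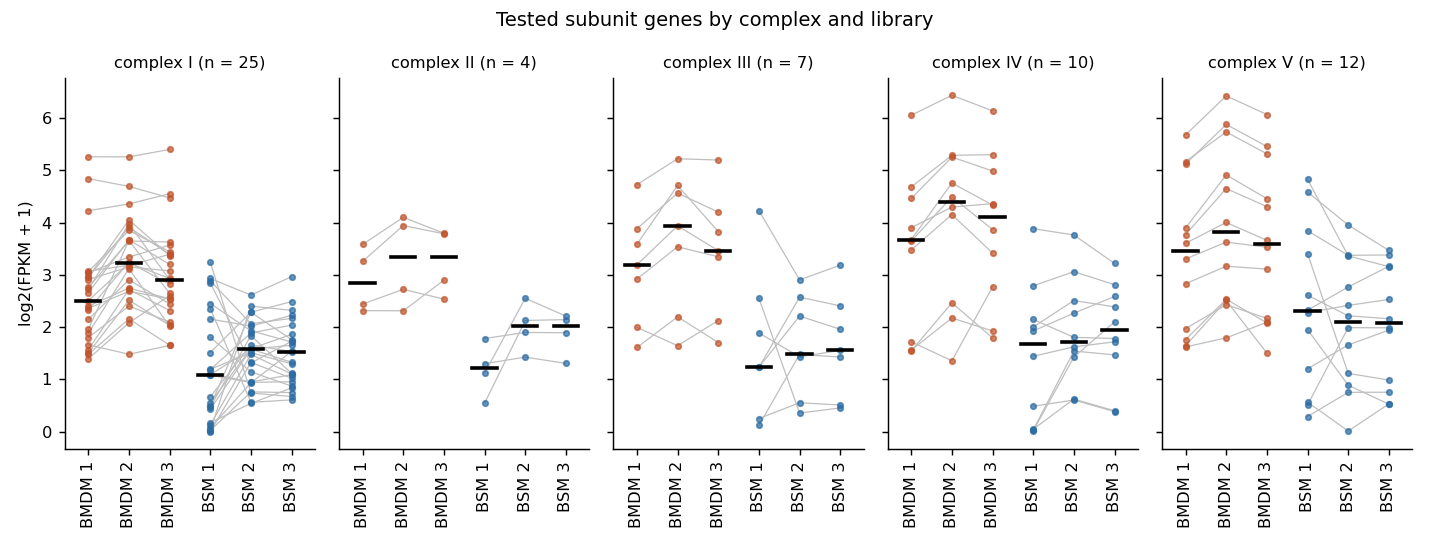
Expression of the tested subunit genes in each library, with 1 panel per complex. The vertical axis is log2(FPKM + 1) and each point is 1 gene. Grey lines join the same gene within a cell type, and each black bar marks the median of the panel's genes in 1 library. The BMDM medians lie above the BSM medians in all 5 complexes, and the points of BSM replicate 1 are spread more widely than those of BSM replicates 2 and 3.

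Nuclear-encoded subunits of all 5 complexes were more abundant in BMDM than in BSM. Over the 88 genes the FPKM values summed to 662, 1026 and 835 in the BMDM sets and to 219, 198 and 188 in the BSM sets, so that the groups did not overlap. Group means of these sums were 841 ± 182 for BMDM and 202 ± 15.9 for BSM (SD, n = 3 each), and they stood in a ratio of 4.17. The FPKM total of all nuclear genes also differed, with a ratio of 1.95, and expressed as a share of that total these genes made up 0.639 to 0.738% in BMDM and 0.308 to 0.361% in BSM.

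Of the 88 genes, 61 reached 3 FPKM in at least 1 library and were tested on the log2(FPKM + 1) scale, which understates the change of low genes. With limma and Benjamini-Hochberg adjustment over all 6364 genes tested, 49 of the 61 were higher in BMDM at an adjusted p under 0.05 and none was higher in BSM, also not at an unadjusted p under 0.05. Among all genes tested, 45.3% were higher in BMDM and 9.22% in BSM by the same rule, against 80.3% and 0% of these genes. The median log2 fold change was 1.64 for the 61 genes and 0.81 for all genes tested, and 51 of the 61 lay above the median of all genes. In 51 of the 61, every BMDM library was above every BSM library, which also held for 55.2% of all genes tested, and in none was every BSM library above every BMDM library (11.6% of all genes).

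Since the typical gene had a higher FPKM in BMDM, each library was also brought to the same distribution by quantile normalization, after which the median of all genes tested was 0.02. The median of the 61 genes was then 0.82, with 33 of the 61 higher in BMDM and none higher in BSM, where 21.7% and 19.3% of all genes were called in those directions. Scaling to an equal FPKM sum over all genes left 19 higher in BMDM and 1, Cox7c, higher in BSM (15.2% and 24.9% of all genes), with a median of 0.77 against -0.23 for all genes. Upper quartile scaling left 32 higher in BMDM (21.7% of all genes) and none in BSM (16.5%), and scaling to an equal sum without mitochondrially encoded genes left 30 (20.2%) and none (17.3%). Under every scaling applied, 17 genes were higher in BMDM, and these 17 were still called when any library was left out of the fit without scaling. They were Ndufa1, Ndufa2, Ndufa3, Ndufb3 and Ndufc1 of complex I, Uqcrfs1 and Uqcrh of complex III, Cox5a, Cox6a1, Cox6b1, Cox6c, Cox7b, Cox8a and Ndufa4 of complex IV, Atp5g3 and Atp5o of complex V, and Cox7a2l. The share of all genes tested that were higher in BMDM under every scaling is not given. It cannot exceed the 15.2% called at the same sum over all genes.

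**Figure D2:**
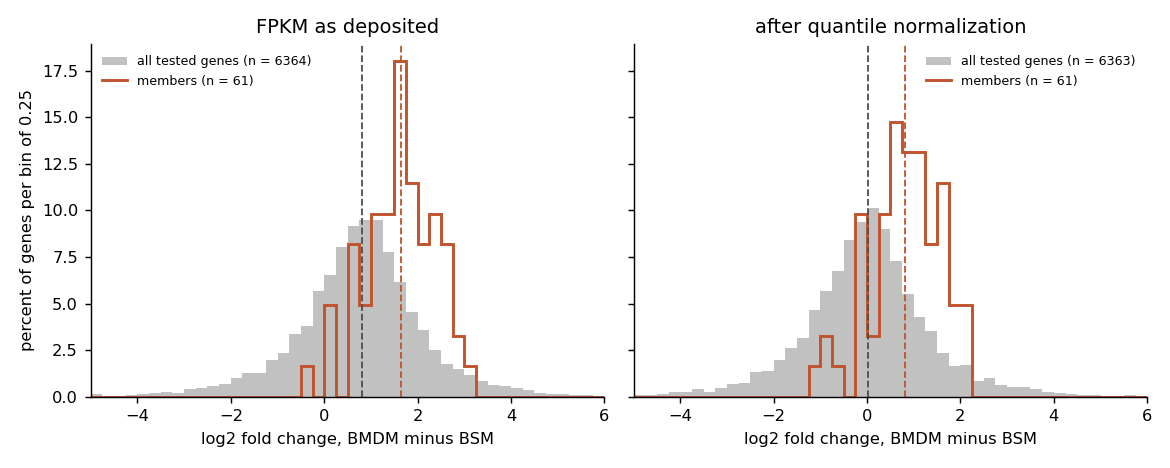
Distribution of log2 fold changes (BMDM minus BSM) for all 6364 genes tested (grey) and for the 61 respiratory chain genes (outline), as percent of genes per bin; the left panel shows FPKM as deposited and the right panel the values after quantile normalization, and dashed lines mark the medians. The outlined genes are centred to the right of the grey ones in both panels, at 1.64 against 0.81 and at 0.82 against 0.02.

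A second quantification of the same libraries, ALEXA-Seq, gave a like picture. It shares the reads with the FPKM table and is therefore not an independent experiment. Of the 92 genes in that matrix 68 were among the 6364 genes with the highest values, and 52 of the 68 were higher in BMDM (76.5%, against 37.1% of all genes tested) and none in BSM (10.9% of all genes), with a median log2 fold change of 2.06 against 0.84. After quantile normalization 42 of the 68 were higher in BMDM and none in BSM, against 22.6% and 21.2% of all genes. In both tables at once, 42 of the 57 genes tested in each were higher in BMDM and none in BSM, where 38.9% and 9.31% of all 5003 genes tested in both were. With quantile normalization of both tables it was 30 of the 57 (21.0% of all), and again none in BSM (17.9%). The ALEXA-Seq count rested on the BMDM sets: it was 31 without BMDM replicate 2 (25.1% of all genes) and 30 without BMDM replicate 3 (22.8%). In both tables at once it was 23 and 22 of the 57 without these libraries, where 26.9% and 24.1% of all genes were called. None was higher in BSM without replicate 2 (9.32% of all genes in ALEXA-Seq, 8.24% in both tables) or without replicate 3 (8.16% and 7.26%). Taking either table, 59 of the 92 genes were called, among them Cox4i1, which has no FPKM row. The share of all genes called in either table is not given. Of the 88 genes with an FPKM row, 18 were tested in neither table.

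BSM replicate 1 stood apart from the other microglia sets. It is the only microglia set labelled male, and the study's RNA quality sheet gives it the lowest RNA concentration and by far the lowest integrity number of all sets. The part of either in the results was not tested. Of the 61 genes, 26 had less than 50% of the lower of the other BSM values in that library and 9 had more than 2 times the higher of them, 57.4% of the genes together, while the same held for 46.2% of all genes tested. The SD of the log2 difference between BSM replicates 1 and 2 was 1.07 over the 61 genes, compared with 0.282 between BSM replicates 2 and 3 and 0.433 between BMDM replicates 1 and 2. Without BSM replicate 1, 53 of the 61 genes were higher in BMDM and none in BSM (50.2% and 11.6% of all genes tested) and the median was 1.53. Of the 49 calls, 48 were kept, 1 was lost and 5 were gained. With that library left out and quantile normalization applied, 42 of the 61 genes were higher in BMDM (25.8% of all genes) and 1, Ndufab1, was higher in BSM (24.8%).

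Complex I is the largest of the complexes, and 25 of its 36 nuclear genes were tested. Of these, 20 were higher in BMDM and 5 were not called, where 45.3% of all genes tested were higher in BMDM. The median log2 fold change was 1.59 without scaling and 0.76 after quantile normalization. The 7 core proteins encoded in the nucleus carry the flavin and iron-sulfur centres, and only 3 of them reached the expression minimum.

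Ndufs1, the largest iron-sulfur core protein at the tip of the peripheral arm (chromosome 1, 63190170 to 63223396, mm9), had 4.14, 5.43 and 4.83 FPKM in BMDM and 6.19, 1.49 and 2.32 FPKM in BSM. Its groups overlapped through BSM replicate 1, and the log2 fold change of 0.57 ± 0.39 (SE) was not called (adjusted p = 0.251). Without that library it was 1.01 with an adjusted p of 0.00818. Ndufv1, which binds NADH and the flavin, stayed below the minimum in every library, at 0.612, 1.43 and 0.876 FPKM in BMDM and 0.615, 0.411 and 0.191 FPKM in BSM, and was not tested.

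Among the supernumerary subunits, which surround the core, Ndufb3 of the membrane arm was the most abundant gene of the complex (chromosome 1, 58643443 to 58652792). Its FPKM values were 37.3, 37.3 and 41.3 in BMDM and 6.63, 5.12 and 6.81 in BSM. All 3 BMDM sets stood far above the microglia, with means of 38.6 ± 2.28 and 6.19 ± 0.928 (SD, n = 3) and a log2 fold change of 2.47 ± 0.22 (SE; adjusted p = 8.9e-05). Ndufs4, an accessory subunit needed for a stable peripheral arm (chromosome 13, 115078859 to 115178260), had the largest difference, with 17.7, 19.5 and 22.5 FPKM in BMDM and 0.0127, 4.29 and 4.00 in BSM. The log2 fold change of 2.80 ± 0.60 (SE, adjusted p = 0.00585) was 2.02 without BSM replicate 1 (adjusted p = 0.000211), and the first rank then passed to Ndufc1 at 2.55. Ndufs4 was not called at the same sum over all genes (adjusted p = 0.0972) or without mitochondrially encoded genes (0.0578). In ALEXA-Seq its log2 fold change was 4.25 and not called (adjusted p = 0.0681), and 2.14 without BSM replicate 1 (adjusted p = 0.000105). Ndufab1, the mitochondrial acyl carrier protein (chromosome 7, 129228917 to 129245400), was at the other end, with 2.17, 1.79 and 2.14 FPKM in BMDM and 0.408, 3.88 and 2.39 in BSM. Its groups overlapped and the log2 fold change of 0.08 ± 0.45 (SE; adjusted p = 0.884) turned to -0.84 after quantile normalization (adjusted p = 0.0724).

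Complex II, succinate dehydrogenase, has 4 subunits and also serves the tricarboxylic acid cycle. All 4 were tested and 3 were higher in BMDM, where 45.3% of all genes tested were. The membrane anchors Sdhc and Sdhd differed more than the catalytic pair. Sdhd (chromosome 9, 50404451 to 50411922) had 8.58, 14.4 and 12.8 FPKM in BMDM and 0.459, 3.37 and 3.42 in BSM, a log2 fold change of 2.06 ± 0.46 (SE; adjusted p = 0.00687). Sdhc, the most abundant of the 4 (chromosome 1, 173057296 to 173080734), had 10.99, 16.2 and 12.9 FPKM in BMDM and 1.18, 4.87 and 3.64 in BSM, with a log2 fold change of 1.87 ± 0.39 (SE; adjusted p = 0.00506). In neither anchor gene did the groups overlap. Both were still called after quantile normalization (adjusted p = 0.0263 for Sdhc and 0.0202 for Sdhd). Neither was called under upper quartile scaling or either scaling to the same sum (adjusted p = 0.0586 to 0.175). Without BSM replicate 1 the log2 fold change was 1.53 for Sdhd and 1.45 for Sdhc, beside 1.20 for Sdhb. In ALEXA-Seq it was 2.61 for Sdhd and 1.72 for Sdhc, beside 1.57 for Sdhb.

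The iron-sulfur subunit Sdhb (chromosome 4, 140517118 to 140535108) was steady within each group, at 4.44, 5.61 and 4.80 FPKM in BMDM and 1.47, 1.69 and 1.47 in BSM, and its log2 fold change was 1.22 ± 0.22 (SE; adjusted p = 0.00296). After quantile normalization it was 0.48 and no longer called (adjusted p = 0.0917), and the call was also lost under the other 3 scalings. The flavoprotein Sdha (chromosome 13, 74460264 to 74487670) had 3.98, 3.97 and 6.46 FPKM in BMDM and 2.44, 2.73 and 2.72 in BSM. These values did not overlap, yet the log2 fold change of 0.65 ± 0.25 (SE) missed the threshold (adjusted p = 0.0595) and was -0.07 after quantile normalization, below the shift of the typical gene. In ALEXA-Seq the log2 fold change of Sdha was 0.84 (adjusted p = 0.0141), which equals the median of all genes in that table to 2 decimals.

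Complex III, the cytochrome bc1 complex, had 7 of 8 nuclear genes tested, and 6 were higher in BMDM (45.3% of all genes tested). The median log2 fold change was 1.64, and 0.93 after quantile normalization. Uqcrfs1, the Rieske iron-sulfur protein (chromosome 13, 30632177 to 30637231), showed 8.15, 14.3 and 10.0 FPKM in BMDM and 0.0861, 1.79 and 1.69 in BSM. Its log2 fold change of 2.52 ± 0.41 (SE; adjusted p = 0.00171) was the largest of the complex, and it was 2.08 without BSM replicate 1, where Uqcrh ranked first with 2.13. Uqcrb, a small subunit near the quinone-reducing site and the most abundant gene of the complex (chromosome 13, 67001556 to 67006261), had 25.5, 36.3 and 35.7 FPKM in BMDM and 17.8, 6.49 and 8.10 in BSM. The groups did not overlap, with a log2 fold change of 1.61 ± 0.37 (SE; adjusted p = 0.00805), but after quantile normalization it was 0.85 and not called (adjusted p = 0.0865). In ALEXA-Seq the groups of Uqcrb overlapped, as BSM replicate 1 at 1545 exceeded BMDM replicate 1 at 1373, and the gene was not called (adjusted p = 0.053).

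Uqcrc1, a core protein of the matrix side (chromosome 9, 108838721 to 108851666), was the exception. Its values were 2.06, 3.59 and 2.26 FPKM in BMDM and 4.88, 0.281 and 0.371 in BSM, so that BSM replicate 1 exceeded every BMDM set while the other microglia sets were far below. The log2 fold change was 0.72 ± 0.58 (SE; adjusted p = 0.32) with all libraries and 1.43 without BSM replicate 1 (adjusted p = 0.00287).

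Complex IV had the largest median difference. In FPKM it had 18 genes, of which 10 were tested and 9 were higher in BMDM (45.3% of all genes tested). The median log2 fold change was 2.27 without scaling and 1.54 after quantile normalization. The difference between complexes was not tested. In the ALEXA-Seq table all 11 tested genes of the complex were called as higher in BMDM, where 37.1% of all genes tested were. They include Cox4i1, the largest nuclear-encoded subunit of most tissues, which has no row of its own among the FPKM values used. Cox4i1 had ALEXA-Seq values of 112, 129 and 177 in BMDM and 26.3, 29.1 and 19.7 in BSM, and its log2 fold change there was 2.42 (adjusted p = 0.000914).

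Cox6b1, a subunit facing the intermembrane space (chromosome 7, 31401994 to 31411136), had the highest summed FPKM of all 88 genes. It measured 65.5, 85.7 and 69.5 FPKM in BMDM and 13.8, 12.6 and 8.31 in BSM, which gave means of 73.6 ± 10.7 and 11.6 ± 2.87 (SD, n = 3). The log2 fold change was 2.59 ± 0.26 (SE; adjusted p = 0.000161) and 1.85 after quantile normalization (adjusted p = 0.00068). Cox5a, which binds the matrix side of the enzyme (chromosome 9, 57369105 to 57380230), had 11.5, 21.5 and 13.6 FPKM in BMDM and 0.0229, 1.92 and 1.77 in BSM. Its log2 fold change of 2.99 ± 0.45 (SE; adjusted p = 0.00115) was 2.50 without BSM replicate 1. Cox7b, a small membrane subunit (chromosome X, 103211039 to 103217789), showed the largest difference of all 61 tested genes when every library was kept, with 14.0, 18.7 and 19.6 FPKM in BMDM and 0.0134, 1.69 and 3.29 in BSM. The log2 fold change was 3.01 ± 0.50 (SE; adjusted p = 0.0018), and 2.42 without BSM replicate 1 (adjusted p = 0.000527), where Cox6b1 ranked first with 2.72.

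Several subunits of this complex exist as a ubiquitous isoform and an isoform of muscle, lung or testis. The ubiquitous isoforms had far higher values in both cell types. Cox6a1 had 21.1, 37.2 and 30.8 FPKM in BMDM and 3.01, 4.69 and 4.24 in BSM, and its muscle counterpart Cox6a2 was listed at 0 in 4 libraries and reached 0.28 FPKM in BSM replicate 2. Cox8a had 11.8, 26.1 and 19.2 FPKM in BMDM and 3.43, 2.50 and 2.44 in BSM, and Cox8b was listed at 0 in every library. Cox7a2 had 1.92, 4.52 and 2.47 FPKM in BMDM and 0.0339, 0.541 and 0.32 in BSM, and Cox7a1 was listed at 0 in all but BMDM replicate 3, where it had 0.137 FPKM.

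Cox4i2 and Ndufa4l2 were listed at 0 in all 6 libraries of both tables. Cox7b2 and Cox8c each had a value above 0 in a single library, 0.0233 FPKM in BSM replicate 3 and 0.0345 FPKM in BMDM replicate 1. Cox6b2, the testis isoform, was the most abundant of the tissue-restricted forms, at 0.514, 0.943 and 0.497 FPKM in BMDM and 0, 0 and 0.0992 in BSM, and remained below the minimum for a test. Ndufa4, now counted as a subunit of complex IV, had 24.7, 38.1 and 38.4 FPKM in BMDM and 5.92, 7.36 and 6.03 in BSM, a log2 fold change of 2.20 ± 0.26 (SE; adjusted p = 0.000339). Cox7a2l, the supercomplex factor related to Cox7a2, stood at 10.7, 19.2 and 14.0 FPKM in BMDM and 2.73, 3.66 and 2.39 in BSM (log2 fold change 1.97 ± 0.28, SE; adjusted p = 0.000896).

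Cox7c, another small membrane subunit (chromosome 13, 86184421 to 86186509), was the only tested gene with a lower mean log2 value in BMDM. It had 2.29, 1.56 and 5.82 FPKM in BMDM and 2.81, 3.82 and 5.01 in BSM. The groups overlapped and the log2 fold change of -0.31 ± 0.39 (SE) was not called (adjusted p = 0.52). In ALEXA-Seq the same gene had values of 351, 533 and 531 in BMDM and 71.3, 142 and 182 in BSM, which do not overlap and gave a log2 fold change of 1.91 in the opposite direction (adjusted p = 0.00679). The direction of Cox7c therefore depends on the quantification, and near-identical copies in other genes cover 58.3% of its transcript.

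Complex V had 12 of 15 genes tested and 9 higher in BMDM (45.3% of all genes tested). The median log2 fold change was 1.65, and 0.82 after quantile normalization. Atp5b, the catalytic beta subunit of the F1 head (chromosome 10, 127520329 to 127527447), had 35.0, 52.3 and 38.9 FPKM in BMDM and 13.4, 9.37 and 9.42 in BSM. The means were 42.0 ± 9.07 and 10.7 ± 2.29 (SD, n = 3), with a log2 fold change of 1.87 ± 0.26 (SE; adjusted p = 0.000786). Atp5h, a peripheral stalk subunit and the most abundant gene of the complex (chromosome 11, 115277003 to 115281276), had 50.2, 85.0 and 66.1 FPKM in BMDM and 23.0, 14.5 and 10.1 in BSM (log2 fold change 2.06 ± 0.34, SE; adjusted p = 0.00185). Atp5j2, the membrane subunit f (chromosome 5, 145944576 to 145952411), had 11.2, 15.0 and 11.7 FPKM in BMDM and 0.426, 2.98 and 2.97 in BSM, and the largest log2 fold change of the complex, 2.26 ± 0.42 (SE; adjusted p = 0.00305). Without BSM replicate 1 it was 1.77, and Atp5h ranked first with 2.35.

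The c-ring, which rotates as protons pass, is made of 1 mature protein encoded by Atp5g1, Atp5g2 and Atp5g3, which differ in their import sequences. Atp5g3 (chromosome 2, 73746504 to 73749383) had 13.9, 29.1 and 21.01 FPKM in BMDM and 3.84, 4.34 and 4.78 in BSM, with a log2 fold change of 2.02 ± 0.30 (SE; adjusted p = 0.00108). Atp5g1 (chromosome 11, 95930166 to 95936984) had 2.13, 4.70 and 1.83 FPKM in BMDM and 9.61, 1.17 and 0.984 in BSM. Its groups overlapped through BSM replicate 1, with a log2 fold change of 0.05 ± 0.64 (SE; adjusted p = 0.953) and of 0.83 without that library (adjusted p = 0.0682). Atp5g2 was listed at 0 FPKM in 5 libraries and at 0.0218 FPKM in BMDM replicate 3, while its ALEXA-Seq values were 65.0, 99.0 and 85.0 in BMDM and 0.697, 24.5 and 20.4 in BSM (log2 fold change 3.09, adjusted p = 0.0435).

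**Figure D3:**
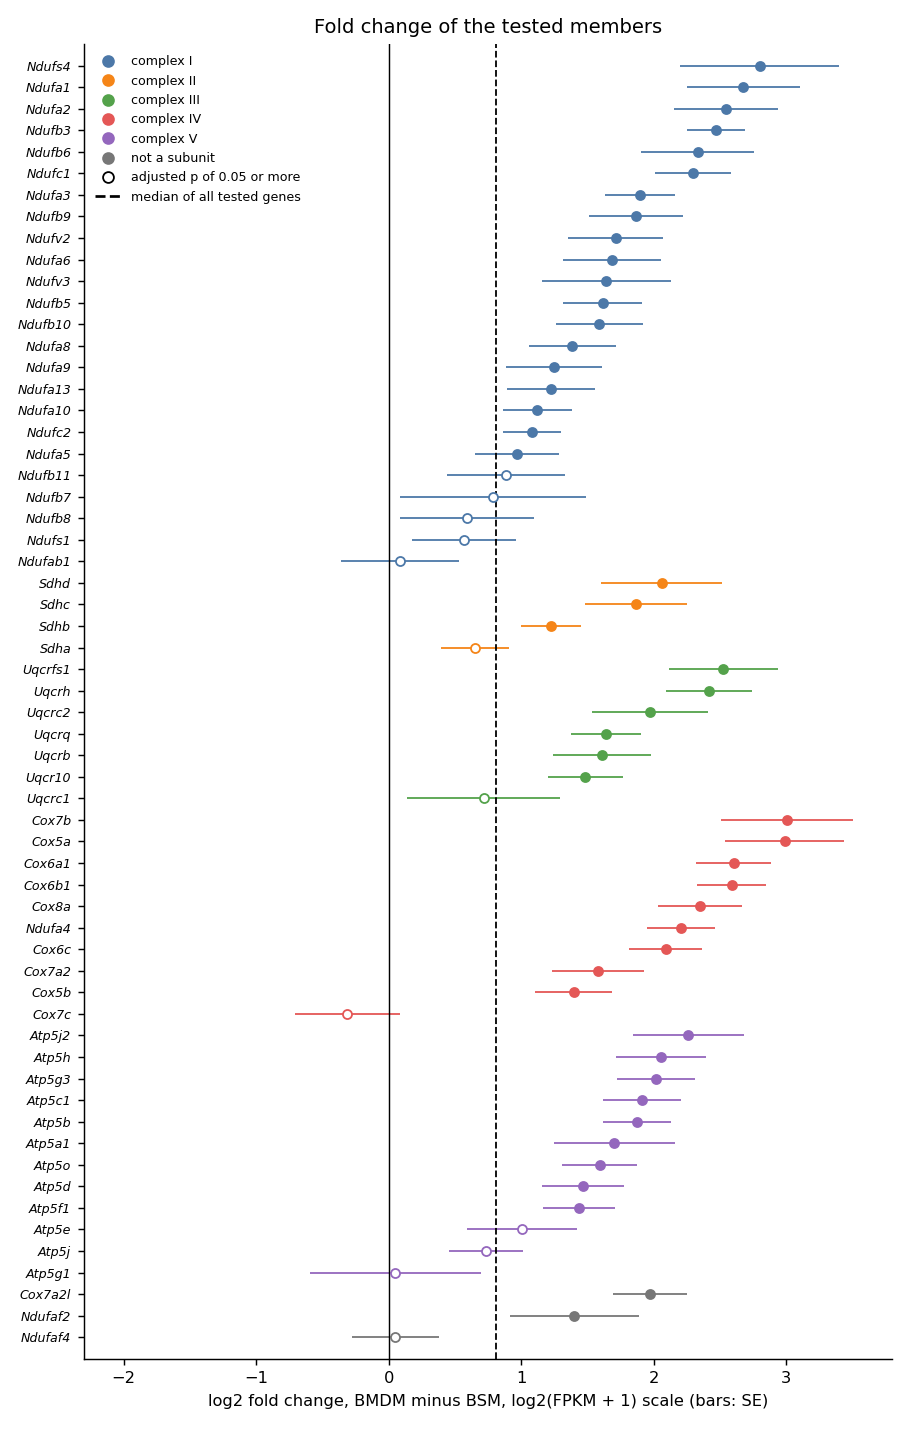
Log2 fold change (BMDM minus BSM) of 60 of the 61 tested genes on the log2(FPKM + 1) scale, ordered within each complex; horizontal bars are standard errors, filled points have an adjusted p under 0.05, open points do not, and the dashed line is the median of all genes tested. All points except Cox7c lie to the right of 0, and 50 of the 60 lie to the right of the dashed line at 0.81.

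In 5 of the 12 genes that were not called, the value of BSM replicate 1 exceeded every BMDM library. They were Ndufs1, Ndufb7, Ndufb8, Uqcrc1 and Atp5g1, named here for that pattern. Ndufb7 had 2.68, 7.70 and 3.04 FPKM in BMDM against 8.48, 0.672 and 0.595 in BSM, and Ndufb8 had 1.79, 3.46 and 2.15 against 4.12, 0.477 and 0.525. Apart from Atp5g1, these genes were called as higher in BMDM without that library, with log2 fold changes of 1.63 for Ndufb7 (adjusted p = 0.0122) and 1.18 for Ndufb8 (adjusted p = 0.00758). In the opposite direction, BSM replicate 1 was under 0.1 FPKM for 9 of the 61 genes, among them Cox5a, Cox7b, Ndufs4 and Uqcrfs1, whose values in the other microglia sets were 1.69 to 4.29 FPKM. The ALEXA-Seq values showed it too, with 36 of 68 genes outside the same limits and Ndufs4 at 0.355 in BSM replicate 1 against 109 and 106.

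The 27 genes of the FPKM table below the minimum include 3 listed at 0 in every library and 14 whose highest value was under 1 FPKM. ALEXA-Seq tested 9 of the 27 and called 6 of them higher in BMDM, where 37.1% of all genes tested there were. The tables differed in level most for genes with near-identical copies elsewhere in the genome. Copies were searched in the GENCODE M21 transcripts, with at least 95% identity over at least 100 bases, and covered at least 50% of the transcript in 12 of the 88 genes. Among 72 genes with a mean ALEXA-Seq value of at least 10, dividing mean ALEXA-Seq values by mean FPKM gave a median of 46.7 in the 12 genes with such copies (range 7.91 to 13487) and of 15.5 in the 60 without (range 3.39 to 233), and 6 of the 12 reached the FPKM minimum against 54 of the 60. Atp5l, the membrane subunit g, was chosen as an example after its values were seen: it had at most 0.121 FPKM in any library, but 477, 667 and 527 in BMDM and 97.7, 87.2 and 81.8 in BSM by ALEXA-Seq. Cox5b had the highest ratio among genes without copies, with a mean of 1.58 FPKM and an ALEXA-Seq mean of 370. Of the genes described above, Uqcrb, Atp5h, Atp5o and Atp5g2 also have such copies, over 62.8%, 77.8%, 80.3% and 88.2% of the transcript, so their levels are uncertain. Low FPKM values of single subunits were therefore not taken as absence of the transcript.

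**Figure D4:**
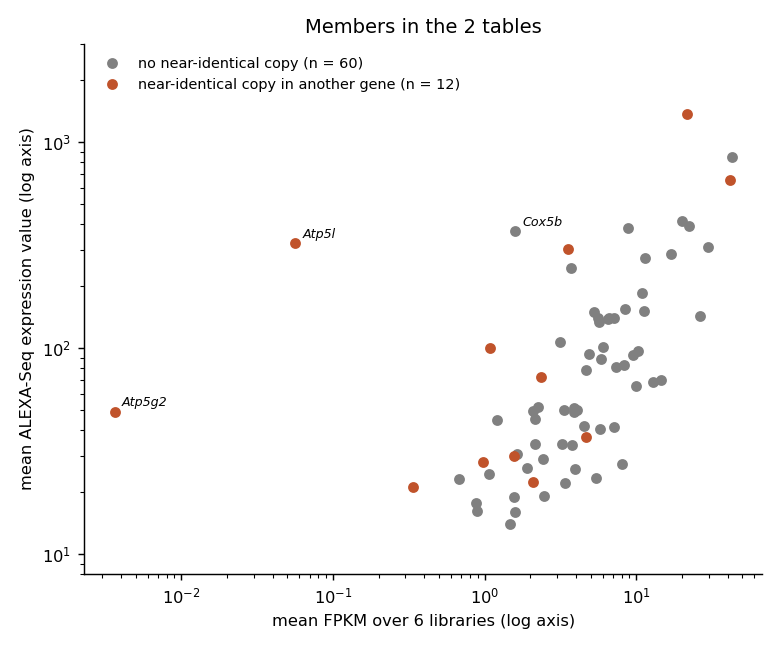
Mean FPKM over the 6 libraries (horizontal, log axis) against the mean ALEXA-Seq value (vertical, log axis) for 72 respiratory chain genes, with genes that have a near-identical copy in another gene in orange. Atp5g2 and Atp5l lie far to the left of the other genes, and 6 of the 12 orange genes were below the FPKM minimum for testing.

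Subunits encoded by mitochondrial DNA gave a contrast within the same complexes. Their summed FPKM was 19524, 11121 and 15162 in BMDM and 3554, 4523 and 3514 in BSM, without overlap. The ratio of the group means was 3.95, close in size to the 4.17 of the nuclear genes. The FPKM total of all genes also differed, with a ratio of 2.50. As a share of that total, these mitochondrial subunits had group means of 8.82% in BMDM and 5.44% in BSM, a ratio of 1.62. The shares overlapped, as BMDM replicate 2 at 5.73% was below BSM replicate 2 at 6.03%. Of 13 such subunits 10 were tested and 8 were higher in BMDM (45.3% of all genes tested), where 1 was after quantile normalization (21.7% of all genes). In ALEXA-Seq 12 were tested and 11 were higher in BMDM without scaling (37.1% of all genes). Within BMDM the sums ran in opposite order: replicate 2 had the highest sum of nuclear genes and the lowest of mitochondrial ones, and replicate 1 the reverse. The ratio of mitochondrial to nuclear sums was 29.5, 10.8 and 18.2 in BMDM and 16.2, 22.9 and 18.7 in BSM, and these ranges overlapped. Replicate 2 is also the BMDM set with most granulocyte and erythroid transcripts. Without it, 43 of the 61 nuclear genes were called as higher in BMDM and none in BSM (36.3% and 7.97% of all genes), with a median log2 fold change of 1.51. ALEXA-Seq calls then fell from 52 to 31 of 68, and the share of all genes higher in BMDM from 37.1% to 25.1%.

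mt-Co2, the copper-binding subunit of complex IV, differed most among the tested mitochondrial subunits, with 30.1, 16.2 and 24.2 FPKM in BMDM and 0.0317, 0.0412 and 1.73 in BSM (log2 fold change 4.05 ± 0.43, SE; adjusted p = 0.000217). In BSM replicates 1 and 2 its values were near 0, although the 13 subunits together reached 3554 and 4523 FPKM there. The level and fold change of mt-Co2 are therefore uncertain, and the cause was not tested. mt-Nd2, a membrane core subunit of complex I, differed least, with 1167, 294 and 515 FPKM in BMDM and 193, 280 and 268 in BSM, and was not called (log2 fold change 1.20 ± 0.46, SE; adjusted p = 0.0583), except without BMDM replicate 2 (1.67, adjusted p = 0.0206).

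**Figure D5:**
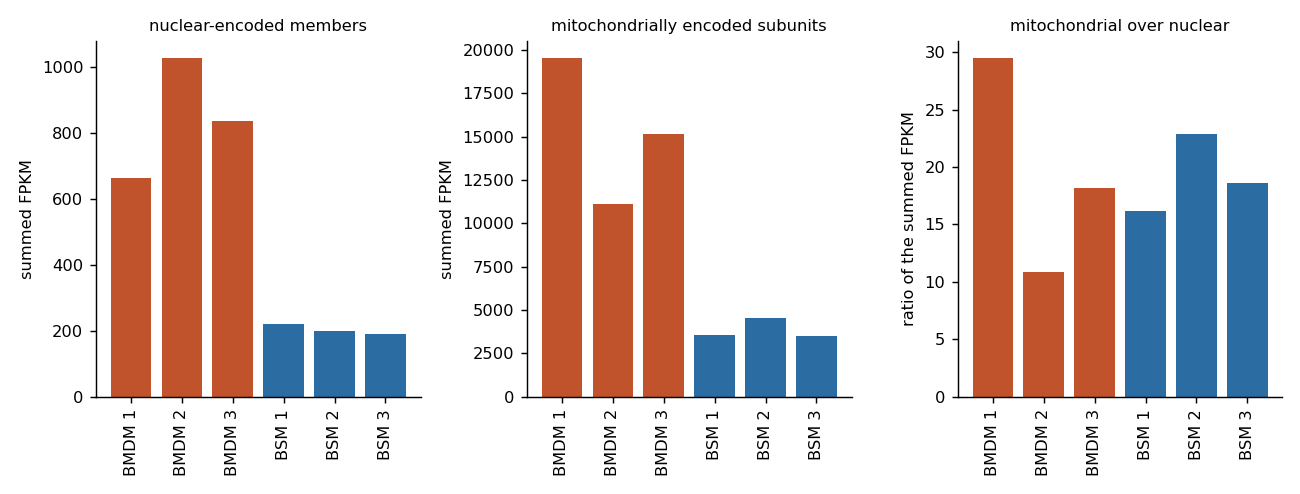
Summed FPKM of the 88 nuclear genes (left), of the 13 mitochondrially encoded subunits (middle) and the ratio of the latter to the former (right) in each library; bars are single libraries, BMDM in orange and BSM in blue. The BMDM bars exceed the BSM bars in the left and middle panels, while the ratio of 10.8 to 29.5 in BMDM spans that of 16.2 to 22.9 in BSM.

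Other mitochondrial genes were taken from lists by pathway, and the lists of nuclear genes had median log2 fold changes of 0.79 to 1.52, beside 0.81 for all genes tested. The counts below stand against 45.3% of all tested genes higher in BMDM without scaling and 21.7% after quantile normalization. In the tricarboxylic acid cycle 10 of 11 tested genes were higher in BMDM without scaling (median log2 fold change 1.21) and 3 after quantile normalization. Fumarase Fh1 differed most, at 2.12 ± 0.46 (SE; adjusted p = 0.00632), but at 1.58 without BSM replicate 1 it was below citrate synthase Cs at 1.95. Of 8 tested carriers, porins and inhibitor or uncoupling proteins 7 were higher in BMDM (3 after quantile normalization). Atpif1, the inhibitor of ATP synthase, led that list with 51.1, 87.9 and 71.9 FPKM in BMDM and 3.77, 30.4 and 22.4 in BSM (log2 fold change 2.20 ± 0.66, SE; adjusted p = 0.0232), and the phosphate carrier Slc25a3 had the smallest difference, 0.93 ± 0.32 (SE; adjusted p = 0.0403). The call of Atpif1 was lost after quantile normalization (adjusted p = 0.124) and without any single BMDM set (adjusted p = 0.0538 to 0.0947), and its log2 fold change was 1.36 without BSM replicate 1, below the 1.83 of Vdac1. Slc25a3 was not called after quantile normalization (adjusted p = 0.598) or without BMDM replicate 2 or 3 or BSM replicate 2 or 3 (adjusted p = 0.113 to 0.13).

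Protein import genes were higher in BMDM in 8 of 12 cases (5 after quantile normalization), from Tomm6 of the outer membrane translocase at 2.03 ± 0.32 (SE; adjusted p = 0.00152) to Timm22 of the carrier translocase at -0.67 ± 0.67 (SE; adjusted p = 0.418), which was 0.18 without BSM replicate 1. Assembly factors were called in 4 of 8 cases and in none after quantile normalization, with Cox15, needed for heme A, at 1.34 ± 0.43 (SE; adjusted p = 0.0301) and Uqcc, a complex III assembly factor, at -0.45 ± 0.41 (SE; adjusted p = 0.375). That share is near the one of all genes, and Cox15 was not called without BMDM replicate 2, BMDM replicate 3 or BSM replicate 1 (adjusted p = 0.0543 to 0.062). Among electron carriers and further complex III proteins 3 of 4 tested genes were higher in BMDM (1 after quantile normalization), the ends being the electron transfer flavoprotein subunit Etfb at 1.85 ± 0.36 (SE; adjusted p = 0.0041) and its dehydrogenase Etfdh at 0.71 ± 0.39 (SE; adjusted p = 0.152).

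Regulators of mitochondrial biogenesis were called in 4 of 9 cases (1 after quantile normalization), a share near that of all genes, and their median of 0.79 was near the 0.81 of all genes. Gabpb2, a partner of the ETS factor GABPA, had the largest difference, 1.69 ± 0.34 (SE; adjusted p = 0.00452), and Polg2, the accessory subunit of the mitochondrial DNA polymerase, the smallest, 0.09 ± 0.26 (SE; adjusted p = 0.783). The pyruvate dehydrogenase list held the only gene of these pathways that was higher in BSM. Pdk1, a kinase that inactivates the enzyme, had 0.647, 0.372 and 0.753 FPKM in BMDM and 11.7, 5.24 and 5.98 in BSM, a log2 fold change of -2.37 ± 0.32 (SE; adjusted p = 0.000732), and of -2.97 after quantile normalization. Brp44, a subunit of the mitochondrial pyruvate carrier in the same list, was higher in BMDM by 2.06 ± 0.32 (SE; adjusted p = 0.00139), and 4 of the 7 tested genes of the list were higher in BMDM (1 after quantile normalization).

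The promoters were searched for motifs of factors known to act on respiratory genes, as most of the genes differed in the same direction. RefSeq promoter windows on GRCm38.p6, from 250 bases before to 50 bases after the start, were found for 74 of the 88 genes, 80 windows in all. The letters GCGCANGC, from the palindromic site of nuclear respiratory factor 1, were present on either strand in 32.5% of these windows, in 20.9% of the 6076 windows of genes tested in FPKM and in 9.95% of all 32851 windows. AAGATGGC, a site form of YY1, was found in 15% of the 80 windows, 5.09% of the windows of tested genes and 2.75% of all windows. CCGGAAGT, from the site of ETS factors such as GABPA, was found in 6.25%, 8.77% and 3.89%. The motifs do not contain each other, and a match is a run of letters, not a bound site. Examples of the first motif follow for complexes I, II, IV and V, to show how the letters vary at the open position, each as 30 bases read 5′ to 3′ on the strand of the gene with the match in capitals.
Ndufb4 (chr16:37654429-37654458, minus strand): gccttgtgcgcGCGCAGGCgcacttcctga
Ndufc2 (chr7:97399954-97399983, plus strand): ctacaatgtcaGCGCAAGCcttcacgcgtt
Sdha (chr13:74350277-74350306, minus strand): aggggcgtgttGCGCAGGCgcagaatcttc
Sdhd (chr9:50603910-50603939, minus strand): ttcgctggggtGCGCACGCgcggtggcagc
Cox6a1 (chr5:115349102-115349131, minus strand): acaggaacgggGCGCATGCgcgctctcgct
Atp5h (chr11:115420042-115420071, minus strand): ggaccccgacgGCGCAGGCgccgcgcccgc

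The centres of these matches lay 34 to 158 bases before the annotated start. The 16 tested genes with a match had a median log2 fold change of 1.59 (range 0.05 to 2.60) and 13 of them were called. Those with a window but no match, 35 genes, had a median of 1.61 (range -0.31 to 3.01) and 27 were called. Sdhd and Sdha, which both carry the letters, were at opposite ends of complex II. The letters of this motif were settled on after longer and palindromic forms of the same site had been searched and their matches seen. The palindromic form CGCATGCG was present in 12.5% of the 80 windows, 4.05% of the windows of tested genes and 1.87% of all windows. The 5 tested genes that carry it had a median log2 fold change of 0.73, against 1.63 for the 46 without it, so the comparison of fold changes depended on the form chosen.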

How the data were processed

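RNA from 3 BMDM and 3 BSM sets had been amplified without strand information and sequenced as paired ends. Per the submitters' processing notes, CASAVA 1.7.0, TopHat 1.3.1, Bowtie 0.12.7, Cufflinks 1.0.3 and the mm9 build were used. The deposited FPKM values are fragments scaled to gene length and mapped reads, made by the authors with Cufflinks per gene. The deposited ALEXA-Seq expression values are a linear signal per gene whose unit is not given in the sources used here, so the order of genes by level was read from FPKM only, and ALEXA-Seq levels were set beside FPKM only to compare the tables. FPKM coordinates are mm9, and the FPKM table's starts were converted to count from 1.

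Here, genes with at least 3 FPKM in 1 or more of 6 libraries were tested by limma 3.58.1 (R 4.3.3) on log2(FPKM + 1), with an intensity trend, the 6 libraries and no covariate. Adjusted p-values are Benjamini-Hochberg values over all 6364 genes, with a threshold of 0.05. The 6364 genes with the highest ALEXA-Seq value were tested alike. Groups came from the sample labels. P-values measure the spread between sets of pooled mice. The genes and lists were chosen with earlier results of these data known. Named were, of each complex, the most abundant gene and those with the largest and smallest difference, the catalytic subunits, isoform sets and, of each pathway list, both ends; 1 gene of the chain and 1 of the pathway lists that the rule names are not reported here. Copies were searched with blastn. Alternatives were pseudocounts, minima, scalings, no trend, a replicate block, omitted libraries and zeros taken as missing.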

Additional observations from a re-analysis of the deposited data

How the results depend on the processing

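All results rest on 3 libraries per group and on values without read counts, so counting error could not be given. The direction towards BMDM of the median and of the summed FPKM held under every alternative run, but the number of calls depended on scaling. Of the 61 genes, 49 were called as higher in BMDM without scaling (45.3% of all genes), 32 after upper quartile scaling (21.7%), 30 after scaling to the same sum without mitochondrially encoded genes (20.2%) and 20 after scaling to the same sum over all genes, of which 19 were higher in BMDM (15.2%) and Cox7c was higher in BSM (24.9%). The median log2 fold change of 1.64 was 1.09, 1.05 and 0.77 under these 3 scalings, 0.82 after quantile normalization, 0.84 with quantile normalization and BSM replicate 1 left out (added after the data were seen), 2.22 with a pseudocount of 0.1 and 2.06 in ALEXA-Seq. These scalings lower the typical gene as well.

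Leaving out each library in turn gave 43 to 53 calls in FPKM, 30 to 63 in ALEXA-Seq and 22 to 51 in both tables at once. The lowest counts came without BMDM replicate 3 (30 in ALEXA-Seq and 22 in both, where 22.8% and 24.1% of all genes were higher in BMDM) and BMDM replicate 2 (31 and 23, where 25.1% and 26.9% were). The highest came without BSM replicate 1, with 53 in FPKM (50.2% of all genes) and 63 in ALEXA-Seq (48.4%). The share of all genes beside the 51 in both tables is not given. The median ranged from 1.51 to 1.78 and the ratio of summed FPKM from 3.71 to 4.61. Replicate numbers are shared between the cell types, and whether same-numbered sets came from the same mice is not known. Correlations of same-numbered deviations were -0.02, -0.01 and 0.13, which cannot decide this with 3 sets per group. With a replicate block 49 genes were called in FPKM, for which the share of all genes is not given.

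Over the 40 named genes tested and all alternatives, 578 comparisons kept direction and call, 56 kept the direction but lost the call and 7 gained it. Of these genes, none whose difference was called without scaling changed sign, except Slc25a3, which was -0.26 at the same sum over all genes. The other 38 sign changes, in genes not called without scaling, were as follows. Under quantile normalization the log2 fold change was -0.66 for Atp5g1, -0.12 for Etfdh, -0.84 for Ndufab1, -0.086 for Ndufs1, -0.68 for Polg2, -0.074 for Sdha and -0.044 for Uqcrc1. At the same sum over all genes it was -0.87 for Atp5g1, -0.34 for Etfdh, -0.75 for Ndufab1, -0.47 for Ndufs1, -1.0 for Polg2, -0.38 for Sdha, -0.038 for Uqcrc1 and -0.11 for mt-Nd2. At the same sum without mitochondrially encoded genes it was -0.61 for Atp5g1, -0.046 for Etfdh, -0.51 for Ndufab1, -0.17 for Ndufs1, -0.69 for Polg2 and -0.084 for Sdha. With upper quartile scaling it was -0.54 for Atp5g1, -0.45 for Ndufab1, -0.10 for Ndufs1, -0.61 for Polg2 and -0.013 for Sdha. With quantile normalization and BSM replicate 1 left out it was -0.44 for Etfdh, -1.07 for Ndufab1, -0.78 for Polg2 and -0.021 for Sdha. With single libraries left out, values crossed 0 for Atp5g1 (-0.37 to 0.83), Ndufab1 (-0.43 to 0.47), Polg2 (-0.075 to 0.22), Timm22 (-1.11 to 0.18) and Uqcc (-0.74 to 0.013). The causes were not tested.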
